A study of Homo sapiens with 12 samples.

Results

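S100 genes encode small calcium-binding proteins, and the 10 members described here are S100A2, S100A4, S100A6, S100A7, S100A8, S100A9, S100A10, S100A11, S100A14 and S100A16, out of 20375 genes measured. They were taken by gene name, and S100A2 and S100A9 were chosen by their TPM levels, which had stood out between the same groups of libraries, so the levels of those 2 genes are given as a description with no test. The cells were PE/CA-PJ41, an established human oral squamous cell carcinoma line. RNA was sequenced from 4 libraries of cells given platelet-rich plasma (PRP, plasma with concentrated platelets) at 10% for 48 h, 4 libraries of cells given human plasma at 10% for 48 h, and 4 libraries of untreated control cells, for which no culture time is stated. The labels do not say how many donors gave the plasma or PRP. They also do not say whether replicates were separate cultures, so each p-value reflects library-to-library spread alone, and that spread could be technical.

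S100 proteins have paired EF-hand calcium-binding loops and mostly work as dimers: calcium opens a surface with which they bind partner proteins such as annexins, and some members are also released from cells and act on receptors such as AGER (RAGE) and TLR4. Most of the family lies in a cluster on chromosome 1, within the region of the epidermal differentiation complex, and several members are typical of stratified squamous epithelium, where S100A7, S100A8 and S100A9 are known to be induced in inflammation. S100A8 and S100A9 pair to form calprotectin, which is also abundant in neutrophils and monocytes.

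Levels are given as TPM, a length-corrected share of all transcripts in a library. Each library held between 36258955 and 41976136 estimated reads, and 12517 genes were tested after a filter of 1 TPM or more in 4 or more libraries, with 10 of the 10 S100 members among them. Markers of squamous epithelium were present in full, with 10 of 10 past that filter and a summed level of 14779 to 16315 TPM in PRP, 14782 to 16034 TPM in plasma and 11782 to 13293 TPM in control libraries. Not every marker went with the sum. KRT17 had 1616 to 1683 TPM in PRP, 1749 to 1823 TPM in plasma and 2565 to 2947 TPM in control. DSG3 had 25.8 to 29.5, 24.6 to 31.8 and 32.2 to 35.5 TPM in the same order. The libraries numbered 1 stood apart in their share of mitochondrial reads, at 0.191% with PRP, 0.216% with plasma and 0.287% in control, against 0.463% to 0.969% in the other libraries. Those numbered 2 lay close together, at 0.463%, 0.476% and 0.487%, below the libraries numbered 3 and 4, at 0.572% to 0.969%. In bulk RNA, a change in the number of cells of a type and a change in RNA per cell cannot be told apart.

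The start regions of 4 members are shown as examples: S100A2, which was graded over the 3 groups, the calprotectin pair S100A9 and S100A8, and S100A11, an abundant member that was higher with both treatments and did not overlap with control. Each line is a RefSeq window of GRCh38.p14 on the gene's own strand, 5′ to 3′, from 250 bases before to 50 bases after a start site, and capitals mark matches to the motifs named after the sequences.
S100A2: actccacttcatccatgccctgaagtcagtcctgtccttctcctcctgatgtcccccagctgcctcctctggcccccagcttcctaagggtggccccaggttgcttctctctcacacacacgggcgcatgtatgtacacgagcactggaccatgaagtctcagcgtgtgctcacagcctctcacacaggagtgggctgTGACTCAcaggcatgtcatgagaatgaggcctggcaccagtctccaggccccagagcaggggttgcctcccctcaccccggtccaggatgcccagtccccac
S100A9: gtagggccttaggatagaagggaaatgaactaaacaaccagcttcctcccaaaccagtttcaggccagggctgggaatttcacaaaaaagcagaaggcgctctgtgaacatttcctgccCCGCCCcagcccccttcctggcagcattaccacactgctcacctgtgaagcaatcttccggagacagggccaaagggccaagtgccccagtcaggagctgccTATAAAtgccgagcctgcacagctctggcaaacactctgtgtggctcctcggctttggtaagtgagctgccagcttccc
S100A8: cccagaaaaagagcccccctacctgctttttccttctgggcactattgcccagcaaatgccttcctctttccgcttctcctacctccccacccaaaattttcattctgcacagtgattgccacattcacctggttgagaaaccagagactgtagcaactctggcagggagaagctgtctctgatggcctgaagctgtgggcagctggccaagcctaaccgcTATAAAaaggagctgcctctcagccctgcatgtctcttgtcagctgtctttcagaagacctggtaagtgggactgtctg
S100A11: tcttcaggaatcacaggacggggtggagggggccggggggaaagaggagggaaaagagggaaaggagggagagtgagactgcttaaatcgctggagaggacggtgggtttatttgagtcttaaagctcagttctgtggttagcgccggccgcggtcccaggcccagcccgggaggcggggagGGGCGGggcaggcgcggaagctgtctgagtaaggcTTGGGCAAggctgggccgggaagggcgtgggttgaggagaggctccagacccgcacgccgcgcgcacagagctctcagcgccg

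These windows were chr1:153565795-153566094 for S100A2 (minus strand), chr1:153357604-153357903 for S100A9 (plus strand), chr1:153391024-153391323 for S100A8 (minus strand) and chr1:152036955-152037254 for S100A11 (minus strand). Both strands were searched for a TATA box (TATAAA), an AP-1 site (TGANTCA), a STAT site (TTCNNNGAA), a C/EBP site (TTGCNNAA) and a GC box (GGGCGG). In the sequences above, the capitals mark an AP-1 match starting 52 bases before the start site in S100A2, a TATA box at 29 bases before it in both S100A9 and S100A8, a GC box 131 bases before it in S100A9, and in S100A11 a GC box 68 bases and a C/EBP match 33 bases before it. Among the 14 RefSeq windows of the 10 members, 5 held a TATA box, 1 an AP-1 match, 1 a C/EBP match, 5 a GC box and 0 a STAT match. Among 35116 windows of all genes, leaving out chromosome 8, the shares were 11.5% for the TATA box, 7.71% for AP-1, 7.66% for STAT, 10.5% for C/EBP and 45.0% for the GC box. The 5 TATA windows belonged to S100A4, S100A7, S100A9 and, with the same box counted in overlapping windows, S100A8. Windows of other start sites of the genes shown were left out. The other S100A2 window, chr1:153563838-153564137, held no match to any of these motifs. Of the other S100A8 windows, chr1:153390927-153391226 held the same TATA box and chr1:153391139-153391438 held no match. A match of letters is a description of the window and not a bound site.

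S100A2, a nuclear S100 protein of basal squamous cells, was highest with PRP, intermediate with plasma and lowest in control. It measured 2685, 2520, 2875 and 2542 TPM in the PRP libraries. Plasma libraries had 1895, 2070, 1966 and 2112 TPM, and control libraries had 1450, 1349, 1545 and 1536 TPM. No library of one group overlapped with another group, so the 3 groups lay in 3 separate ranges. Of all genes tested, 5.22% had no overlap between PRP and plasma, 46.8% between PRP and control and 43.9% between plasma and control. The means were 2655 ± 163.5, 2011 ± 98.8 and 1470 ± 91.2 TPM for PRP, plasma and control (SD, n = 4 each). On the log2(TPM + 1) scale the difference was 0.40 ± 0.05 (SE) for PRP minus plasma, 0.85 ± 0.05 for PRP minus control and 0.45 ± 0.05 for plasma minus control. Those correspond to 1.32-fold, 1.81-fold and 1.37-fold ratios of mean TPM. The estimated reads behind these levels were 25437 to 31854 per PRP library, 20126 to 23197 per plasma library and 14447 to 17865 per control library, and the effective length moved by only -0.03, -0.09 and -0.06 on the log2 scale in the same 3 comparisons. S100A2 ranked 41 to 54 among 20375 genes by TPM with PRP, 76 to 83 with plasma and 104 to 114 in control.

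S100A9, a subunit of calprotectin, was higher with both treatments than in control, with no separation between PRP and plasma. Its levels were 22.4, 26.2, 23.0 and 25.4 TPM with PRP. With plasma they were 27.8, 36.4, 20.9 and 17.4 TPM, and in control 6.78, 6.31, 6.50 and 5.23 TPM. Every treated library lay above every control library, while the PRP values fell inside the wider plasma range. Of all genes tested, 19% lay wholly higher than control with PRP and 18.2% with plasma. The means were 24.2 ± 1.84 TPM with PRP, 25.6 ± 8.37 TPM with plasma and 6.20 ± 0.68 TPM in control (SD, n = 4 each), and the log2 differences were -0.03 ± 0.16 for PRP minus plasma, 1.81 ± 0.16 for PRP minus control and 1.84 ± 0.16 for plasma minus control (SE). In estimated reads, PRP libraries held 164 to 224, plasma libraries 147 to 270 and control libraries 43 to 55. The sign of the small PRP minus plasma difference was positive in 4 of 19 alternative settings.

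**Figure D1:**
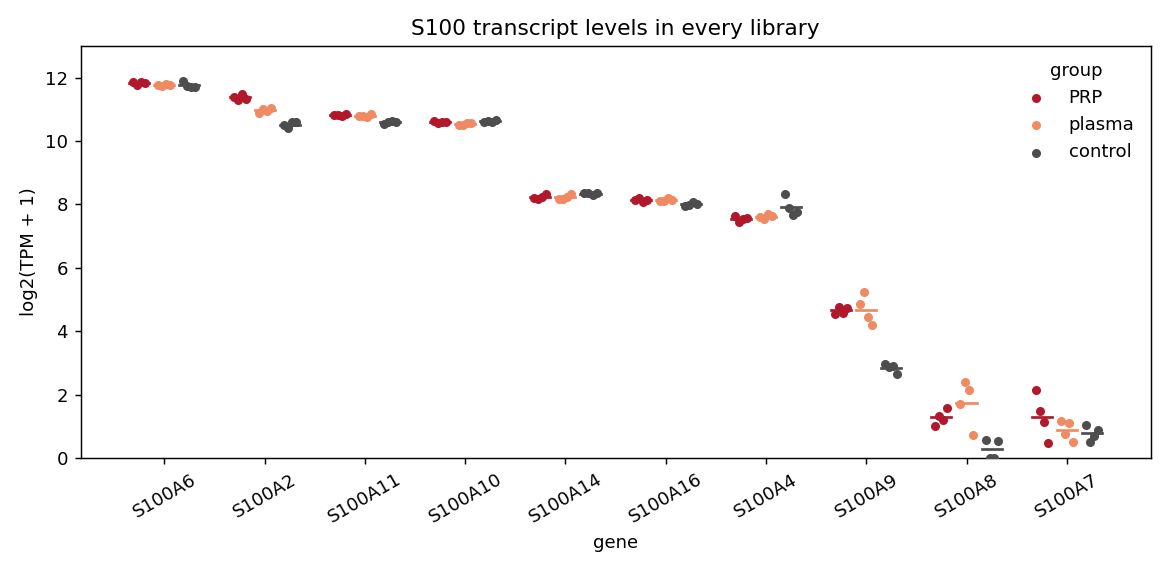
Level of each S100 member as log2(TPM + 1) (vertical axis) for PRP, plasma and control (4 points each, 1 per library; the short line is the group mean). S100A2 forms 3 steps, S100A9 separates both treatments from control, and S100A8 and S100A7 lie near the detection limit.

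S100A8, the calprotectin partner of S100A9, was close to the detection limit in all groups and was higher with both treatments than in control. It had 1.01, 1.52, 1.31 and 1.96 TPM with PRP, 2.25, 4.26, 3.44 and 0.67 TPM with plasma, and 0.47, 0, 0 and 0.46 TPM in control. The reads behind these values were 4, 7, 6 and 9 with PRP, 10, 17, 16 and 3 with plasma, and 2, 0, 0 and 2 in control. All treated libraries lay above all control libraries, where 19% of all genes tested lay wholly higher with PRP and 18.2% with plasma. S100A8 passed the filter only through treated libraries, with 0 of 4 control libraries at 1 TPM, so a difference from control was built into its being tested. The values against control are therefore a description. In the fit of plasma and control alone, S100A8 fell below the filter and was not tested. S100A8 was higher than control with PRP by 1.01 ± 0.28 on the log2(TPM + 1) scale (SE; limma adjusted p = 0.008667) and with plasma by 1.47 ± 0.28 (adjusted p = 0.0007486). PRP minus plasma was -0.47 and did not pass the test (adjusted p = 0.7329). Summed over libraries, S100A8 had 26 reads with PRP, 46 with plasma and 4 in control, giving ratios of the share of reads of 0.562 (exact 95% interval 0.333 to 0.928) for PRP over plasma, 6.56 (2.28 to 25.9) for PRP over control and 11.7 (4.26 to 44.7) for plasma over control. These intervals cover counting error only, and PRP and plasma libraries overlapped. S100A8 amounted to 4.52% to 7.72% of the S100A9 level with PRP, 3.82% to 16.4% with plasma and 0 to 8.74% in control, so the S100A9 transcript was in large excess over its partner's in all 12 libraries.

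Calprotectin genes are also neutrophil and monocyte genes. Of 12 myeloid marker genes, 4 (CSF3R, MPO, ELANE and TYROBP) had 0 reads in every library and 7 had at most 3 reads in every library. Their summed level was 6.56 to 9.54 TPM with PRP, 6.06 to 8.86 TPM with plasma and 4.18 to 5.49 TPM in control. CD14 had 137 to 220 reads with PRP, 153 to 184 with plasma and 38 to 88 in control. PTPRC (CD45) was the other way round, with 2 to 7 reads with PRP, 2 to 9 with plasma and 25 to 35 in control. Of 8 platelet markers, 3 (PF4, GP9 and TREML1) had 0 reads in every library. PPBP had 0 to 3 reads with PRP and 0 with plasma and in control, while ITGA2B had 23 to 27 reads with PRP, 22 to 45 with plasma and 30 to 49 in control. The platelet list summed to 0.309 to 0.424 TPM with PRP, 0.353 to 0.645 TPM with plasma and 0.488 to 0.718 TPM in control. Of 5 erythroid markers, 3 had 0 reads in every library, HBB and ALAS2 among them, and HBA1 had 9 to 24 reads with PRP, 0 to 17 with plasma and 0 to 20 in control. HBA2 had 0 reads with PRP, 0 to 10 with plasma and 0 to 11 in control, and the erythroid list summed to 1.05 to 2.83 TPM with PRP, 1.17 to 1.92 TPM with plasma and 1.38 to 2.68 TPM in control. Of 5 fibroblast markers, 3 passed the filter, and the list summed to 12.8 to 14.5 TPM with PRP, 13.7 to 17.1 TPM with plasma and 16.2 to 21.7 TPM in control. The part of these levels in the S100A8 and S100A9 differences was not tested.

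**Figure D2:**
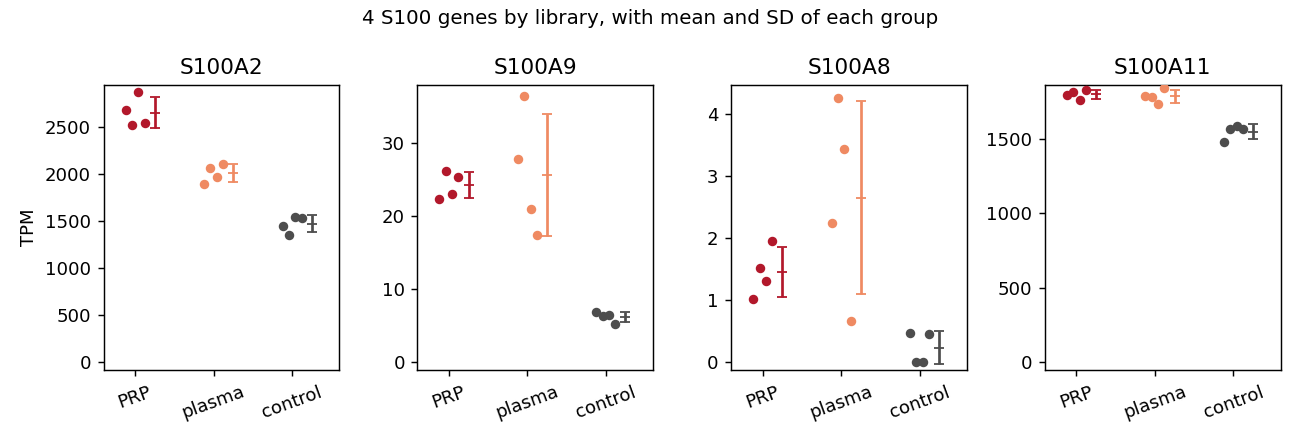
TPM of S100A2, S100A9, S100A8 and S100A11 (vertical axes, each from about 0) by library for PRP, plasma and control, with the group mean and SD drawn beside the 4 points of each group. S100A2 is graded at 2655, 2011 and 1470 TPM, S100A9 is at 24.2, 25.6 and 6.20 TPM, and the plasma libraries of S100A8 and S100A9 spread most widely.

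S100A7 (psoriasin), a secreted antimicrobial protein of inflamed epidermis, did not pass the test in any comparison. It had 3.45, 1.80, 1.20 and 0.37 TPM with PRP, 1.22, 0.68, 1.17 and 0.40 TPM with plasma, and 1.06, 0.43, 0.60 and 0.83 TPM in control, with 2 to 15 reads per library. The groups overlapped in all pairs, and the adjusted p was 0.7474 for PRP minus plasma, 0.1229 for PRP minus control and 0.7857 for plasma minus control. PRP replicate 1 gave the highest value. Leaving out PRP replicate 4 brought the PRP minus control limma adjusted p to 0.01071, whereas every other setting in which S100A7 was tested left that difference uncalled. Without the 3 libraries numbered 1, S100A7 fell below the filter and was not tested. S100A7 and S100A7A are near-identical copies, so the assignment of these few reads between them is uncertain.

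S100A11 (calgizzarin), which binds annexins and takes part in growth control and membrane repair, was higher with both treatments. Its levels were 1797, 1817, 1759 and 1831 TPM with PRP, 1787, 1780, 1733 and 1845 TPM with plasma, and 1480, 1565, 1590 and 1565 TPM in control. Treated and control libraries did not overlap, where 19% of all genes tested lay wholly higher with PRP and 18.2% with plasma. The log2 difference was 0.22 ± 0.03 for PRP minus control (SE; limma adjusted p = 5.793e-05) and 0.20 for plasma minus control (adjusted p = 0.0001147), while PRP minus plasma was 0.01 (adjusted p = 0.9838). S100A11 has processed pseudogenes, so how reads were divided between them and the gene is uncertain. S100A16, a broadly expressed member next to S100A14, behaved alike in direction: 282, 293, 269 and 284 TPM with PRP and 272, 274, 294 and 281 TPM with plasma, against 248, 250, 269 and 256 TPM in control. Its difference was 0.14 ± 0.04 for PRP minus control (adjusted p = 0.006422) and 0.13 for plasma minus control (adjusted p = 0.0102). Both genes remained called against control in 19 of 19 alternatives.

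S100A4 (metastasin), linked to motility and metastasis, was lower with both treatments. It had 197, 174, 185 and 188 TPM with PRP, 195, 185, 205 and 197 TPM with plasma, and 317, 237, 202 and 215 TPM in control. Control replicate 1 was high and the control range reached down to 202 TPM, within the plasma range. The difference was -0.36 ± 0.10 for PRP minus control (SE; limma adjusted p = 0.009083) and -0.29 for plasma minus control (adjusted p = 0.03126). PRP and control libraries did not overlap, as in 46.8% of all genes tested (27.8% lower). Without control replicate 1 the differences were -0.22 for PRP minus control (adjusted p = 0.004995) and -0.15 for plasma minus control (adjusted p = 0.03946). The plasma call held in 11 of 19 alternatives; it was lost without the filter (0.06589), under median-of-ratios scaling (0.05948), with only the 2 groups compared (0.05558), without plasma replicate 1 (0.05464), 2 (0.07624) or 4 (0.05451), without control replicate 2 (0.05405), and without the 3 libraries numbered 1, where the difference was -0.15 (adjusted p = 0.06217). S100A4 overlaps S100A3 on the same strand, so how reads were divided between them is uncertain. S100A14, which lies 1109 bases from S100A16, had 291, 284, 299 and 318 TPM with PRP, 287, 285, 300 and 318 TPM with plasma, and 328, 326, 315 and 326 TPM in control. It was lower by a small margin, -0.12 ± 0.04 for PRP minus control (adjusted p = 0.02404) and -0.12 for plasma minus control (adjusted p = 0.02447). Both calls were lost when TPM was rescaled by median of ratios (adjusted p = 0.3106 with PRP and 0.2768 with plasma) and with voom on estimated reads (0.3664 and 0.3404). Each held in 11 of 19 alternatives. The PRP call was also lost without PRP replicate 1 or 2, the plasma call without plasma replicate 1 or 2, and both without control replicate 1, 2 or 4 or the 3 libraries numbered 1; single libraries left out gave adjusted p-values of up to 0.07739 with PRP (without PRP replicate 2) and 0.07428 with plasma (without plasma replicate 2).

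S100A10 (p11), which forms a tetramer with annexin A2, had 1582, 1518, 1547 and 1554 TPM with PRP, 1458, 1441, 1522 and 1534 TPM with plasma, and 1536, 1590, 1562 and 1637 TPM in control. It did not pass the test for PRP minus control (adjusted p = 0.4737), and passed for plasma minus control at -0.09 ± 0.03 (adjusted p = 0.03306), a call lost under median-of-ratios scaling (0.4956), with voom (0.6144) and without plasma replicate 1 (0.08662) or 2 (0.1003) or control replicate 2 (0.0682) or 4 (0.09995), as well as without the 3 libraries numbered 1 (0.06751) and with only the 2 groups compared (0.05775). The S100A10 level was 58.2% to 63.2% of the ANXA2 level with PRP, 54.8% to 64.0% with plasma and 55.8% to 60.6% in control. S100A6 (calcyclin), which binds CACYBP, was the most abundant member, at 3705, 3475, 3697 and 3613 TPM with PRP, 3479, 3432, 3525 and 3460 TPM with plasma, and 3785, 3393, 3367 and 3330 TPM in control. It passed no test (adjusted p = 0.7666 for PRP minus plasma, 0.1946 for PRP minus control and 0.9415 for plasma minus control). Without control replicate 1, which was higher than the other control libraries, PRP minus control reached an adjusted p of 0.01046, and it was also called without the 3 libraries numbered 1 (0.04874), under median-of-ratios scaling (0.04047) and with voom (0.006803).

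**Figure D3:**
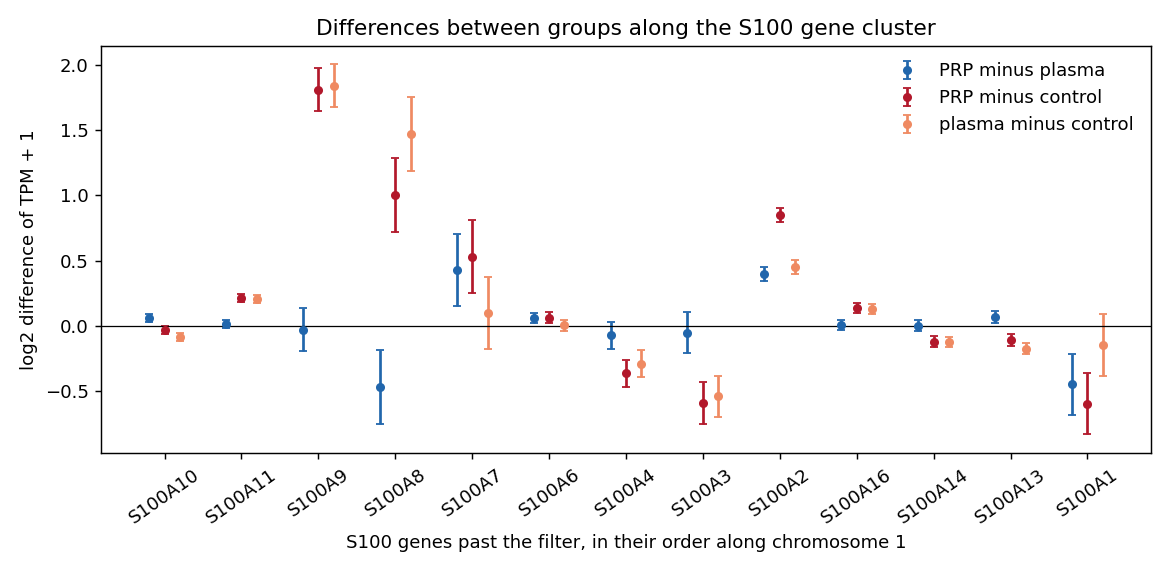
Difference of log2(TPM + 1) (vertical axis, with SE bars) for the S100 genes on chromosome 1 that passed the filter, in their order along it, for PRP minus plasma, PRP minus control and plasma minus control. S100A9 and S100A8 lie furthest above 0 against control, S100A2 lies above 0 in all 3 comparisons, and on this scale S100A1, S100A3, S100A4, S100A10, S100A13 and S100A14 lie below 0 in both comparisons with control, although S100A10 for PRP minus control turned to 0.0263 under median-of-ratios scaling and 0.0356 with voom, and S100A13 to 0.0066 with voom.

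Of the 8 members other than S100A2 and S100A9, 0 were called between PRP and plasma in either direction at an adjusted p under 0.05 and 0 had an unadjusted p under 0.05; of all genes tested, 0.0639% were called there, or 8 genes, all higher with PRP, with 999 at an unadjusted p under 0.05. Against control, 3 of these 8 were higher with PRP (S100A8, S100A11, S100A16), 2 were lower (S100A4, S100A14) and 3 did not pass (S100A6, S100A7, S100A10), where 53.1% of all genes were called, 21.7% higher and 31.5% lower. With plasma, 3 were higher (S100A8, S100A11, S100A16), 3 lower (S100A4, S100A10, S100A14) and 2 did not pass (S100A6, S100A7), where 49.3% of all genes were called, 20.3% higher and 29% lower. The split moved with the scaling: under median-of-ratios scaling 4 were higher and 1 lower with PRP and 3 higher and 0 lower with plasma, and with voom 4 were higher and 1 lower with PRP and 3 higher and 1 lower with plasma. These counts describe the members and do not set them apart from the other genes. S100A8 passed the filter only through treated libraries, so its place among the higher members, by test or by range, is no support. By ranges alone, 0 of the 8 had no overlap between PRP and plasma (5.22% of all genes, 2.63% higher and 2.59% lower). Between PRP and control, S100A8 and S100A11 lay wholly higher and S100A4 wholly lower (46.8% of all genes, 19% higher and 27.8% lower), and between plasma and control S100A8, S100A11 and S100A16 lay wholly higher and S100A10 wholly lower (43.9% of all genes, 18.2% higher and 25.7% lower). The median log2 difference of the 8 genes was 0.01 for PRP minus plasma, 0.10 for PRP minus control and 0.05 for plasma minus control, with -0.0039, -0.06 and -0.05 over all genes tested. The 3 comparisons share libraries, and the PRP and plasma comparisons with control use the same 4 control libraries.

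The order of levels was the same from first to eighth place in PRP and plasma: S100A6, S100A2, S100A11, S100A10, S100A14, S100A16, S100A4 and S100A9. In both groups S100A14 and S100A16 overlapped, and so did S100A7 and S100A8 at the foot. In control, S100A6 was followed by S100A10, S100A11 and S100A2, which overlapped with their neighbours, then S100A14, then S100A16 and S100A4, which overlapped, then S100A9, S100A7 and S100A8. The TPM ratio of S100A2 to S100A6 was 0.704 to 0.778 with PRP, 0.545 to 0.610 with plasma and 0.383 to 0.461 in control. The 10 members summed to 1.01% to 1.07% of all TPM with PRP, 0.940% to 0.977% with plasma and 0.872% to 0.915% in control. Without S100A2 the sums were 7590 to 7881 TPM with PRP, 7437 to 7654 TPM with plasma and 7313 to 7703 TPM in control, and these ranges overlapped.

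Within groups, members were compared as deviations of each library from its group mean on the log2(TPM + 1) scale, over 45 pairs of members and 12 libraries. The median Pearson r of the 45 pairs was -0.01, and 19 pairs were above 0. S100A9 and S100A10 moved in opposite directions from library to library, with r = -0.87 (exact within-group permutation, two-sided p = 0.0001447, adjusted over 45 pairs 0.00651). Spearman's rho was -0.92 (same permutation, p = 0.001157, adjusted 0.05208) and did not pass after adjustment. The comparison within groups was planned as a description with no test, and S100A9 was chosen by its levels, so these p-values are descriptions. Pearson r of S100A9 and S100A10 was -0.90 without the 2 libraries farthest from the median in S100A9, plasma replicates 2 and 4. It was -0.89 without the libraries numbered 1. The permutation takes the libraries of a group as exchangeable, and it did not allow for a link between same-numbered libraries. S100A4 and S100A6 moved together (r = 0.93, exact permutation p = 0.003255, adjusted 0.07324; rho = 0.87, p = 0.007089, adjusted 0.1595), which did not pass after adjustment, and r was 0.86 without control replicates 1 and 3 and 0.74 without the libraries numbered 1. The calprotectin pair S100A8 and S100A9 had r = 0.62 (exact permutation p = 0.2154, adjusted 0.8813) and rho = 0.40 (p = 0.3417, adjusted 0.8361). Without plasma replicates 2 and 4 that r was -0.26, so the relation rested on those 2 libraries.

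**Figure D4:**
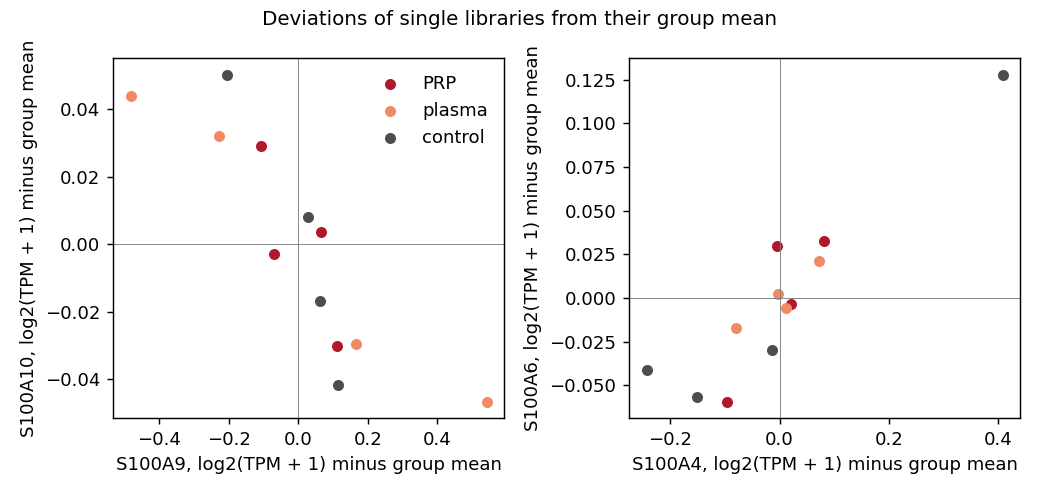
Deviation of each library from its group mean in log2(TPM + 1), for S100A10 against S100A9 (left) and S100A6 against S100A4 (right); colours mark PRP, plasma and control, 4 libraries each. S100A9 and S100A10 lie along a falling line (r = -0.87), and the right panel is stretched by control replicate 1 (r = 0.93 with it).

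Across the 12 libraries and 10169 genes with a mean of at least 5 TPM, the genes whose pattern was most like that of S100A2 included TMSB10, H2AZ1, TOMM6 and ZCCHC17, with Pearson r between 0.963 and 0.967. TMSB10, an actin-sequestering thymosin, averaged 2029 ± 80.9 TPM with PRP, 1831 ± 56.1 TPM with plasma and 1494 ± 68.5 TPM in control (SD, n = 4 each). For S100A9 the most alike were ZC3H12A, NFKBIA, SERPINA3, TMEM132A and PSME2, with r between 0.983 and 0.994. ZC3H12A, an RNase that degrades inflammatory transcripts, averaged 24.7 ± 0.28 TPM with PRP, 25.5 ± 4.70 TPM with plasma and 10.8 ± 1.01 TPM in control. NFKBIA, the inhibitor of NF-κB, averaged 197 ± 4.15, 206 ± 18.6 and 121 ± 5.70 TPM in PRP, plasma and control. Within groups, where the group means are removed, r with S100A9 was 0.915 for ZC3H12A and 0.894 for NFKBIA. These genes were picked for their likeness, so the values are descriptions, and 704 genes had r above 0.9 with S100A9 and 257 with S100A2.

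Of the other S100 genes, 10 were measured and 4 passed the filter. S100A3, a hair-cuticle S100 protein in human, averaged 9.21 ± 2.89 TPM with PRP, 9.30 ± 1.04 TPM with plasma and 13.97 ± 1.46 TPM in control; it was lower with PRP, at a log2 difference of -0.59 ± 0.16 (SE; limma adjusted p = 0.006453), and with plasma, at -0.54 ± 0.16 (adjusted p = 0.0122). S100A13 averaged 261.8 ± 15.9 TPM with PRP, 249.6 ± 10.4 TPM with plasma and 281.6 ± 6.88 TPM in control; it was lower with plasma, at -0.17 ± 0.04 (adjusted p = 0.004815), a call lost under median-of-ratios scaling (0.07744) and voom (0.5296), and the PRP minus control value did not pass (adjusted p = 0.05493), though it did without PRP replicate 3 (0.02194) or 4 (0.03733) or control replicate 4 (0.04959). S100A1 was lower with PRP, at a log2 difference of -0.59 (adjusted p = 0.0463) at a mean of 1.69 TPM with PRP and 2.99 TPM in control, a call lost in 13 of 19 alternatives, with adjusted p-values of up to 0.1664 without the 3 libraries numbered 1 and 0.14 without PRP replicate 4; with 1 of the 12 libraries left out, it held when that library was PRP replicate 3, plasma replicate 2 or control replicate 4 and was lost otherwise. S100A13 overlaps S100A1 on the opposite strand, and whether counting used strand was not stated in the sources used here; without strand, reads of the pair cannot be told apart. S100B and S100G had 0 reads in every library, and S100A12, the third neutrophil calgranulin, had at most 2. Among the fused S100 genes, which encode large cornified-envelope proteins such as filaggrin, 1 of 7 passed the filter (TCHH), and it was not called.

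The list described here and those below were chosen with earlier results of these data known, so their shares and medians are descriptions. Of 21 tested partners and receptors of S100 proteins, 10 were higher and 4 lower than control with PRP (66.7% called, against 53.1% of all genes), and 9 were higher and 4 lower with plasma (61.9%, against 49.3% of all genes). CYBA, a subunit of the phagocyte oxidase to which calprotectin delivers arachidonic acid, averaged 219.8 ± 13.1 TPM with PRP, 220.1 ± 12.4 TPM with plasma and 96.1 ± 6.19 TPM in control; it rose by 1.18 ± 0.06 (SE; limma adjusted p = 2.97e-09) with PRP and 1.19 ± 0.06 (adjusted p = 3.809e-09) with plasma. BSG (CD147), a receptor for S100A9, averaged 929.1 ± 15.4 TPM with PRP, 921.8 ± 7.45 TPM with plasma and 669.2 ± 8.74 TPM in control. CD68 averaged 69.7 ± 5.29, 74.1 ± 6.64 and 42.6 ± 5.07 TPM in PRP, plasma and control. ANXA2, the S100A10 partner, averaged 2539 ± 72.2 TPM with PRP, 2506 ± 131.8 TPM with plasma and 2711 ± 63.8 TPM in control; it was called lower with plasma (adjusted p = 0.02412) and not with PRP (0.05253), and the plasma call was lost under median-of-ratios scaling, with voom and without plasma replicate 3 or 4 or control replicate 3. The PRP difference was called without plasma replicate 1 or 3 or control replicate 1. ANXA1 and the receptor AGER did not pass in either comparison, AGER at 1.85 TPM with PRP, 2.03 TPM with plasma and 2.34 TPM in control. TLR4, the other main receptor of calprotectin, was below the filter.

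Of 22 tested regulators reported for S100 genes, 6 were higher and 8 lower with PRP (63.6% called, against 53.1% of all genes). With plasma, 6 were higher and 7 lower (59.1%, against 49.3% of all genes). ESR1, named after its values were seen, is among those called lower in both comparisons. It averaged 0.798 ± 0.12 TPM with PRP, 0.867 ± 0.05 TPM with plasma and 1.30 ± 0.15 TPM in control. ESR1 passed the filter only through control libraries, so its place among the lower genes is no support. FOSL1, an AP-1 subunit, was lower with both treatments, at 51.8 ± 8.02 TPM with PRP, 48.7 ± 9.99 TPM with plasma and 124.2 ± 35.9 TPM in control (-1.21 ± 0.19, limma adjusted p = 0.0001256 with PRP; -1.30 ± 0.19, adjusted p = 7.95e-05 with plasma). JUN, another AP-1 subunit, was lower too, at 28.6 ± 1.74, 30.7 ± 2.23 and 41.1 ± 4.51 TPM. The AP-1 subunits FOS and JUNB, named after their values were seen, were not called. Limma adjusted p was 0.6591 with PRP and 0.7423 with plasma for FOS, and 0.1426 and 0.1523 for JUNB. ELF3, an epithelial ETS factor, was higher, at 335.9 ± 8.97 TPM with PRP, 349.7 ± 16.01 TPM with plasma and 160.9 ± 10.96 TPM in control. NFKBIZ, an NF-κB cofactor, was higher as well, at 6.995 ± 0.11, 8.23 ± 0.64 and 3.54 ± 0.28 TPM. The NF-κB subunits RELA and NFKB1, named after their values were seen, went in opposite directions. RELA was lower (-0.20, limma adjusted p = 0.007068 with PRP and -0.20, adjusted p = 0.008199 with plasma). NFKB1 was higher (0.24, adjusted p = 0.0153 with PRP and 0.23, adjusted p = 0.02029 with plasma).

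The antimicrobial and inflammatory genes of epidermis, whose induction is known to accompany that of S100A7 to S100A9, were higher in 13 of 18 tested genes with PRP and 13 of 18 with plasma, and lower in 1 in each comparison (77.8% called, against 53.1% of all genes with PRP and 49.3% with plasma). Of all genes, 21.7% were called higher with PRP and 20.3% with plasma. The median log2 difference of the list was 0.83 with PRP and 0.75 with plasma, against -0.06 and -0.05 over all genes. Because the list was chosen with earlier results of these data known, these values do not support a rise of such genes as a set. IL36G, named after its values were seen, is among those called higher with PRP. It averaged 0.352 ± 0.06 TPM in control and passed the filter only through treated libraries. CXCL1, a neutrophil chemoattractant, averaged 98.7 ± 4.32 TPM with PRP, 104.1 ± 30.1 TPM with plasma and 27.2 ± 4.24 TPM in control (1.83 ± 0.16, limma adjusted p = 5.542e-07 with PRP; 1.87 ± 0.16, adjusted p = 5.88e-07 with plasma). CCL20, a lymphocyte attractant, averaged 13.5 ± 1.18, 14.5 ± 2.55 and 3.84 ± 0.70 TPM, and LCN2, an iron-withholding antimicrobial lipocalin, averaged 87.3 ± 2.94, 109.9 ± 19.0 and 42.1 ± 4.80 TPM in PRP, plasma and control. The plasma libraries of CXCL1, CCL20 and LCN2 spread more widely than the PRP libraries, but this did not hold across the list. In SLPI, PI3, IL1B, IL36G, KRT16, RNASE7 and TGM1, named after their values were seen, the SD was larger with PRP than with plasma.

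Of 22 genes of the epidermal differentiation complex beside the S100 cluster, 7 were past the filter. Of these, 6 were higher with PRP (85.7% called, against 53.1% of all genes) and 5 with plasma (71.4%, against 49.3% of all genes), and 0 were lower in either comparison. SPRR2D, a small proline-rich cornified-envelope precursor, averaged 9.13 ± 1.83 TPM with PRP, 5.29 ± 1.46 TPM with plasma and 1.67 ± 0.82 TPM in control, and SPRR2A averaged 6.56 ± 1.20, 8.004 ± 1.55 and 1.09 ± 0.65 TPM. SPRR1B averaged 146.8 ± 10.9 TPM with PRP, 108.8 ± 5.12 TPM with plasma and 66.9 ± 8.79 TPM in control. SPRR1A averaged 23.0 ± 4.09, 17.8 ± 2.52 and 16.5 ± 4.52 TPM and was called only with PRP (adjusted p = 0.0297; with plasma 0.5363), a call lost without the filter and without PRP replicate 2, 3 or 4 or control replicate 2 or 4; PRP minus plasma did not pass (0.6627). SPRR2 genes are near-identical copies, so their separate levels are uncertain.

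Of 16 other calcium sensors, 12 were higher and 3 lower in each comparison with control (93.8% called, against 53.1% of all genes with PRP and 49.3% with plasma). The 3 that were lower were CALB1, CALB2 and CALU, named after their values were seen. EFHD2 (swiprosin-1) averaged 470.3 ± 24.1 TPM with PRP, 405.8 ± 30.4 TPM with plasma and 193.0 ± 16.1 TPM in control (1.28 ± 0.06, limma adjusted p = 4.32e-09 with PRP; 1.07 ± 0.06, adjusted p = 2.516e-08 with plasma). CALML5, the calmodulin-like skin protein, averaged 5.78 ± 0.73, 6.96 ± 0.93 and 2.79 ± 0.69 TPM in PRP, plasma and control, and CALML3 averaged 206.7 ± 2.81, 195.8 ± 5.91 and 116.9 ± 7.21 TPM. This list too was chosen with earlier results known, so its share is a description. Between PRP and plasma, 0 genes of these lists were called.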

How the data were processed

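RNA was measured by RNA-seq in 12 libraries, grouped by treatment from the sample labels. RNA came from an RNeasy extraction with polyA capture and the Watchmaker mRNA kit, per the labels' protocols. The submitters' processing notes name Salmon and hg38; which transcripts were indexed was not stated in the sources used here. Per the file headers, the authors deposited TPM and estimated counts per gene, written with a decimal comma; each TPM value recomputed from the deposited estimated count and effective length matched within 1% plus 0.01 TPM. No other value was used (0 columns of samples from elsewhere).

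Differences were fitted with limma-trend, from limma 3.58.1 under R 4.3.3, applied to log2(TPM + 1), a scale that understates the change of low genes. The fit took in 12517 genes that reached 1 TPM in 4 or more libraries, 1 term per group and 9 residual degrees of freedom, with two-sided tests and Benjamini-Hochberg adjustment at 0.05. The main measure was TPM, with voom run on the deposited estimated counts as a second measure. The steps were tested on simulated data. Alternatives were no filter, a pseudocount of 0.1, median-of-ratios scaling, voom, the replicate block, only the groups compared, and leaving out each library or the 3 libraries numbered 1. The members and gene lists were chosen with earlier results of these data known. List genes named are up to 4 per list and comparison with the largest difference among those called with a mean of at least 5 TPM. ANXA2, ANXA1, AGER and TLR4 were added to these. S100A1 was named after its values were seen, as were the genes so marked above. Some genes that this rule names are not reported here. Same-numbered libraries were not paired in the main fit, and their residual correlations ran from -0.07 to 0.30. Whether they were handled together was not stated in the sources used here. The main fit and the within-group permutation take the libraries of a group as exchangeable, which such handling would break.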

Additional observations from a re-analysis of the deposited data

Results flagged for a closer look

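S100A6 in control replicate 1 was at 3785 TPM, far from the other 3 control libraries, at 3330 to 3393 TPM. Total reads were low in PRP replicate 1, at 36943548 against 41872643 to 41976136 in the other PRP libraries, and in plasma replicate 2, at 36258955 against 41752302 to 41946780 in the other plasma libraries. In all, 51 groups of 4 libraries were screened, 3 had such a library, and chance gives about 2.55. The part of depth in the S100 differences was not tested.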

How the results depend on the processing

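Across 89 results and 1686 alternative values, 1568 were labelled as kept. For tested genes this meant the same direction and side of the threshold. For counts of calls it meant a count near the main one. For S100A2 and S100A9 it meant the same direction with a shift smaller than the spread within groups. Genes called for PRP minus plasma numbered 8, and 4 without the filter, 16 when only the 2 groups compared were fitted, and 2 to 14 when libraries were left out (2 without replicate 1 of every group). S100 members called for plasma minus control numbered 6, and 3 under median-of-ratios scaling or with only the 2 groups compared, and 3 to 6 when libraries were left out. With only those 2 groups, S100A8 fell below the filter and was not tested, so its absence there is not a lost call. S100A10 for PRP minus control turned to 0.0263 under median-of-ratios scaling and 0.0356 with voom, S100A13 for PRP minus control to 0.0066 with voom, and AGER for plasma minus control to 0.23 with voom; the cause was not tested. With libraries left out, differences near 0 changed sign. For PRP minus plasma these ran from -0.1885 to 0.1524 for S100A9, -0.0023 to 0.0278 for S100A11, -0.0297 to 0.0337 for S100A14 and -0.0106 to 0.0314 for S100A16. Without replicate 1 of every group they were 0.0633 for S100A9, -0.005 for S100A14 and -0.0065 for S100A16, and PRP minus control was -0.0185 for ANXA1. For plasma minus control they ran from -0.0149 to 0.0466 for S100A6, from -0.279 to 0.0966 for AGER, from -0.0335 to 0.269 for SPRR1A and from -0.0003 to 0.0754 for ANXA1, and for PRP minus control from -0.3581 to 0.0175 for AGER and from -0.0253 to 0.0505 for ANXA1. Of all called genes, 59.2% were lower with PRP and 58.8% with plasma against control, but 48.9% and 47.9% under median-of-ratios scaling. In the fit with the replicate block, 9, 7105 and 6600 genes were called for PRP minus plasma, PRP minus control and plasma minus control, and 0, 5 and 6 of the 8 S100 members; 7 of 12 library pairs correlated best with their own number, which is a hint from the data only. At 0 to 17 reads per library, S100A8 and S100A7 are limited by depth.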
